A study of Mus musculus with 12 samples.

Results

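Cd38, its adjacent paralog Bst1 and 8 genes close by on mouse chromosome 5 (Cpeb2, Cc2d2a, Fbxl5, Fgfbp1, Prom1, Tapt1, Lap3 and Med28) were followed across Cd38 genotypes in isolated astrocytes. The 10 genes were taken by symbol and position, without a threshold on their values, and all 10 had a row among the 20614 genes measured. The questions were whether Bst1 transcript was higher where Cd38 was disrupted, and whether genes in the DNA that flanks the disrupted allele differed between genotypes.

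RNA was sequenced from astrocytes of male mice aged 12 to 14 months, in 3 Cd38+/+, 3 Cd38+/- and 6 Cd38-/- libraries (spelled CD38 in the labels), the first being mice with both intact copies of the gene. The mutant allele (Cd38tm1Lnd on the B6.129P2 line) carries a disruption of exons 2 and 3 in every cell of the animal, so no genotype here is a mutation of astrocytes alone, and the mice were bred from C57BL/6J. The tissue labelled midbrain was dissected from striatum, thalamus and substantia nigra. Endothelial cells, myelin and microglia were removed with beads before the astrocytes were pulled down on beads against ACSA-2, an astrocyte surface antigen. Nothing in the sources used here says whether each library came from a separate animal, so the p-values measure the spread between libraries.

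Values are TPM, transcript abundances on a fixed total per library, which are scaled to gene length, so levels of different genes can be compared within a library. Every library sums to the same total, read counts are not part of this unit, and the depth behind a value is therefore unknown. Differences between genotypes are log2 fold changes of TPM + 1 from limma, with 95% intervals, and q is the limma p-value adjusted by Storey's method over all genes tested. A difference was called when q was under 0.05 and the fold was at least 1.2, and only genes with a mean above 5 TPM in a compared genotype were tested.

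CD38 is a glycoprotein of the plasma membrane and of internal membranes that breaks down NAD to nicotinamide and ADP-ribose, and also makes cyclic ADP-ribose, a messenger that releases calcium from internal stores. In brain tissue it is known as a major NAD-consuming enzyme and is found in astrocytes. BST1 (CD157), its paralog, is an ectoenzyme held at the cell surface by a lipid anchor and belongs to the same ADP-ribosyl cyclase family. The paralogs lie next to each other and arose by gene duplication. An allele made in 129-derived stem cells and bred onto C57BL/6J can keep 129 sequence beside the targeted gene. The alleles at flanking loci were not read here, so the Cd38 genotype and the flanking DNA cannot be told apart.

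The order of the genes on chromosome 5, in GENCODE vM21 annotation of GRCm38 (mm10), was Cpeb2, Cc2d2a, Fbxl5, Bst1, Cd38, Fgfbp1, Prom1, Tapt1, Lap3 and Med28. Cd38 lies at chr5:43868553-43912375 on the + strand and Bst1 at chr5:43818885-43843986 on the same strand, 49.7 kb away between starts. Upstream lie Fbxl5 (chr5:43744615-43821638, - strand), Cc2d2a (chr5:43662346-43740972, + strand) and Cpeb2 (chr5:43233170-43289724, + strand). Downstream lie Fgfbp1 (chr5:43978858-43981779, - strand), Prom1 (chr5:43993620-44102032, - strand), Tapt1 (chr5:44175154-44226626, - strand), Lap3 (chr5:45493374-45512691, + strand) and Med28 (chr5:45520229-45529276, + strand). The starts of transcription of the 8 genes are between 46.9 kb (Fbxl5) and 1652 kb (Med28) from that of Cd38. The set does not hold every gene of this stretch: C1qtnf7, Ldb2, Qdpr and Clrn2 lie nearer to Cd38 than Lap3 and are not in it. Fbxl5 and Bst1 overlap by 2754 bases on opposite strands, and the counting is not stated to use strand, so reads from the overlap cannot be assigned with certainty.

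The sequences of the disrupted exons are shown because they decide what a value per gene can say about the mutant allele. The Cd38-201 transcript has 8 exons and 3270 bases, of which 912 code for protein. Exon 2 (130 bases) and exon 3 (136 bases) together hold 266 bases, 29.2% of the coding sequence and 8.13% of the transcript. Their summed length leaves a remainder of 2 when divided by 3. The other 91.9% of the transcript lies outside both exons, and a TPM value per gene does not say from which exons its reads came. A level above 0 in Cd38-/- libraries is therefore no measure of intact mRNA. Exon 2 at chr5:43900333-43900462 on the + strand, taken from the GENCODE vM21 transcript, reads 5′ to 3′ as follows.
Cd38 exon 2: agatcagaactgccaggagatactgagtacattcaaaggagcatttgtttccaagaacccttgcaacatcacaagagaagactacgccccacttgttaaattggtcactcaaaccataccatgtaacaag

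Exon 3 has the same length in both paralogs and is shown in both to make clear how far the sequences have diverged, since reads of one gene could be given to the other only where the sequences match. Capitals mark the positions at which the exons carry the same base. The Cd38 exon lies at chr5:43901421-43901556 and the Bst1 exon at chr5:43821610-43821745, both on the + strand.
Cd38 exon 3: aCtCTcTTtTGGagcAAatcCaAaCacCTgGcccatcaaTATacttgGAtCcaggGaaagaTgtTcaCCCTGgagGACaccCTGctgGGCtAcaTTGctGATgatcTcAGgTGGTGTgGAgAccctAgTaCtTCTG
Bst1 exon 3: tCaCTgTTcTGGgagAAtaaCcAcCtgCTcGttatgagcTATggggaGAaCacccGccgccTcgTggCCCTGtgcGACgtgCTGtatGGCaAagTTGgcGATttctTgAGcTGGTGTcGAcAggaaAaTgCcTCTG

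Of the 136 positions of exon 3, 65 (47.8%) were identical, and no identical run within the exon was longer than 6 bases. Exons 6 (93 bases) and 7 (87 bases) also had equal lengths in the paralogs, while Bst1-201 has 9 exons, 2856 bases and a coding length of 933. Over all annotated transcripts of both genes the longest shared run was 19 bases and no stretch of 25 bases was shared.

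Cd38 had the largest difference of the 8 tested genes in both comparisons with Cd38-/-, and its libraries were ordered by the number of intact copies. The Cd38+/+ libraries had 149, 120 and 105 TPM, the Cd38+/- libraries 90.8, 90.7 and 90.4 TPM, and the Cd38-/- libraries between 8.54 and 21.9 TPM with a median of 15.7. No library of one genotype overlapped those of another, as the plot of TPM by library shows. The means were 125 ± 22.2 TPM (SD, n = 3) for Cd38+/+, 90.6 ± 0.231 TPM (SD, n = 3) for Cd38+/- and 15.7 ± 5.21 TPM (SD, n = 6) for Cd38-/-. In Cd38+/+ astrocytes 1515 of the 20614 genes had a higher mean than Cd38, and in Cd38-/- astrocytes 8483 did.

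**Figure D1:**
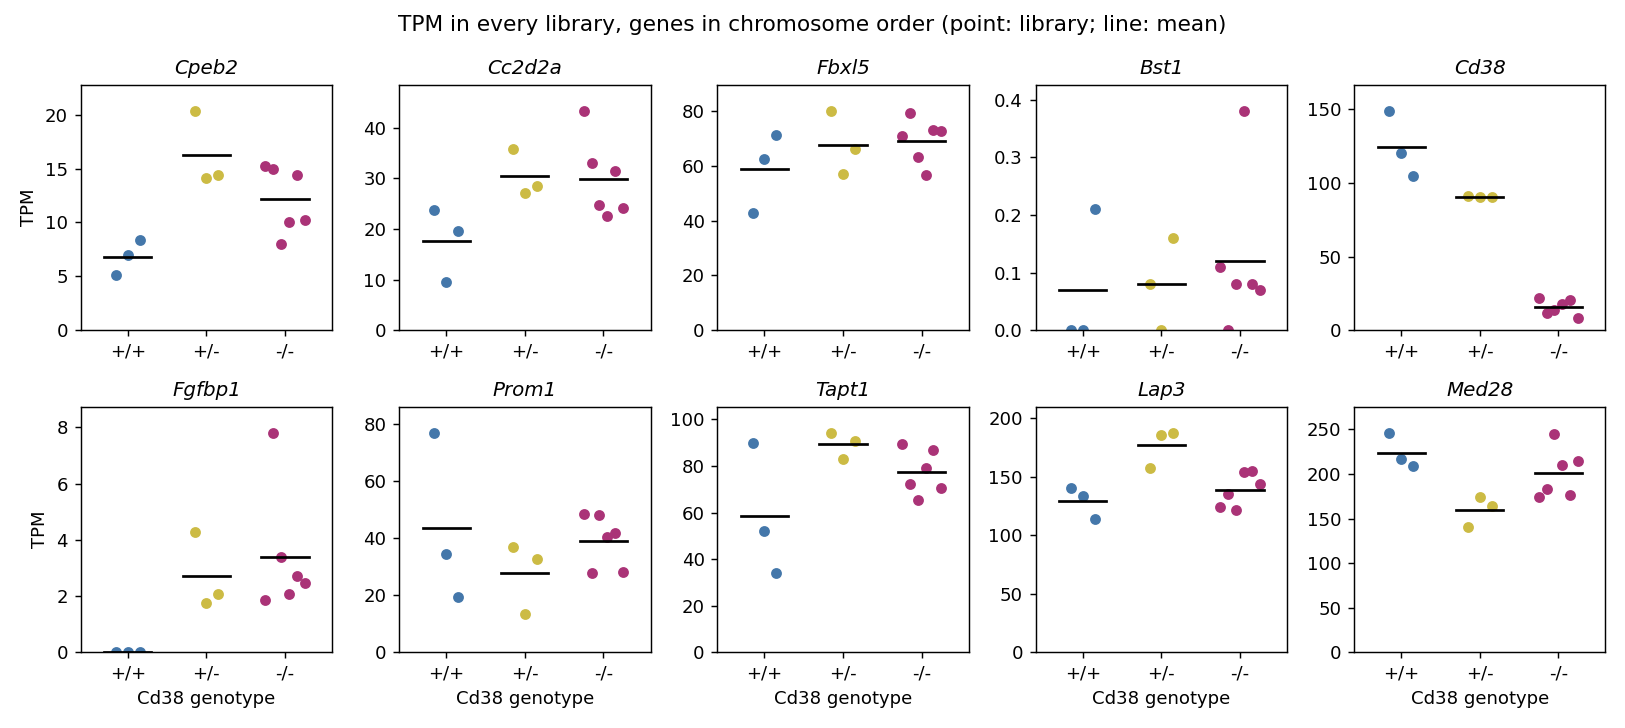
TPM (vertical axes, each from 0 with its own scale) of the 10 genes in chromosome order, for Cd38+/+ (n = 3), Cd38+/- (n = 3) and Cd38-/- (n = 6), with a point for each library and a line at the mean of the genotype. Cd38 steps down from 105 to 149 TPM through 90.4 to 90.8 TPM to 8.54 to 21.9 TPM without overlap, while Bst1 stays at or below 0.38 TPM throughout.

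The fall of Cd38 was called against either of the other genotypes. On the scale of TPM + 1 the Cd38-/- level was 12.8% of the Cd38+/+ level (interval 8.44% to 19.6%; log2 fold change -2.96 ± 0.28 SE, q = 0.00116) and 17.4% of the Cd38+/- level (interval 12.0% to 25.3%; log2 fold change -2.52 ± 0.25 SE, q = 0.00340). The exact permutation test of the single gene gave p = 0.0119 in each case, the smallest that 6 libraries against 3 allow. The call against Cd38+/- did not hold without Cd38+/- replicate 3 (log2 fold change -2.52, q = 0.0595), and the call against Cd38+/+ did not hold with weights for library quality (log2 fold change -3.14, q = 0.109).

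With 1 intact copy the Cd38 level was 73.7% of the Cd38+/+ level on the same scale, with an interval from 55.3% to 98.4% (log2 fold change -0.44 ± 0.18 SE). This difference was not called (q = 0.226), although every Cd38+/- library was below every Cd38+/+ library. The exact permutation test gave p = 0.1, the smallest that 3 libraries against 3 allow. The Cd38+/- libraries lay close together, with an SD of 0.231 TPM, while the SD of the Cd38+/+ libraries was 22.2 TPM. In bulk RNA fewer cells of a type and less RNA per cell cannot be told apart, here and for the genes that follow.

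Bst1 was listed at 0 or under 1 TPM in every library. The Cd38+/+ libraries were listed at 0, 0 and 0.21 TPM, the Cd38+/- libraries at 0.08, 0 and 0.16, and the Cd38-/- libraries at 0.11, 0, 0.08, 0.38, 0.08 and 0.07. All genotypes overlapped, and the highest value, in Cd38-/- replicate 4, was still below 1 TPM. Zeros were frequent in the Cd38+/+ libraries, where 112 to 221 of the 11373 genes with a mean over 5 TPM were also listed at 0, against 1 to 7 in Cd38+/- and 2 to 4 in Cd38-/-. Bst1 stayed under the 5 TPM needed for the test in all 3 comparisons. In Cd38-/- astrocytes the mean of Bst1 was 0.12 ± 0.133 TPM (SD, n = 6), against a fall of Cd38 from 125 to 15.7 TPM.

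When the filter on low values was left out, the interval of the Bst1 difference was narrow on the scale of TPM + 1. It ran from -0.16 to 0.29 on the log2 scale for Cd38-/- against Cd38+/+ (difference 0.064, q = 0.340), from -0.23 to 0.26 for Cd38+/- against Cd38+/+ (difference 0.017, q = 0.562) and from -0.16 to 0.26 for Cd38-/- against Cd38+/- (difference 0.047, q = 0.655). Because the added 1 TPM is larger than any Bst1 value, these intervals bound the change in TPM and not the fold of so low a transcript. Exact permutation p-values were 0.726, 1.0 and 0.762. A rise of Bst1 was not detected in these data, and its expression in cells that the isolation left out was not measured.

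Among the other genes the levels in Cd38+/+ ran from Med28 (mean 224 TPM) over Lap3 (129 TPM), Fbxl5 (58.9 TPM), Tapt1 (58.7 TPM), Prom1 (43.4 TPM) and Cc2d2a (17.6 TPM) to Cpeb2 (6.81 TPM), with Fgfbp1 listed at 0. Cd38 had rank 3 of 10 in that order, and its range overlapped that of Lap3 above it and not that of Fbxl5 below it. Fbxl5, Tapt1 and Prom1 overlapped one another. In Cd38-/- astrocytes Cd38 had rank 7, with its highest library (21.9 TPM) just under the lowest of Cc2d2a (22.6 TPM) and its range overlapping that of Cpeb2.

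With the filter on low values, no gene of the set apart from Cd38 was called in any of the 3 comparisons. Against Cd38+/+, 1 of the 8 genes tested was called in Cd38-/- (background 8.28% of 11722 genes tested) and 0 of 8 in Cd38+/- (background 0.0% of 11763 genes tested, where 1586 had an unadjusted p under 0.05). Between Cd38-/- and Cd38+/-, 1 of 8 was called (background 0.0346% of 11563 genes tested). An unadjusted limma p under 0.05 was found for 3, 4 and 3 of the 8 (background 23.6%, 13.5% and 11.2%), in the order Cd38-/- against Cd38+/+, Cd38+/- against Cd38+/+ and Cd38-/- against Cd38+/-. These comparisons share libraries. The values of each gene follow, and the plot of differences gives all intervals.

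**Figure D2:**
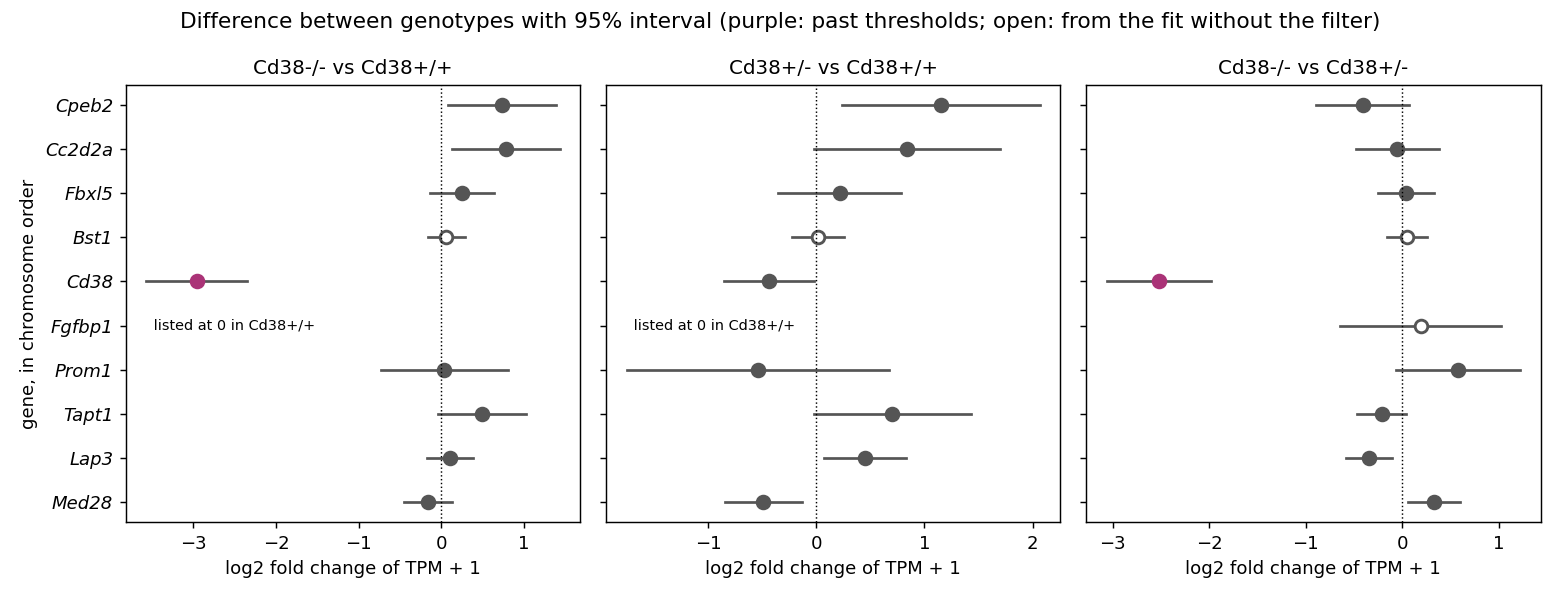
Log2 fold change of TPM + 1 (horizontal axes, scales differ between panels) for the 10 genes in each comparison, with 95% intervals as lines. Purple marks a difference past the thresholds, open circles mark Bst1 and Fgfbp1, which come from the fit without the filter on low values, and no point is drawn for Fgfbp1 against Cd38+/+, where it is listed at 0. Cd38 lies at -2.96 and -2.52 in the comparisons with Cd38-/-, and the filled circles of the other genes lie between -0.54 and 1.15.

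Fbxl5, which encodes the iron-sensing F-box protein that marks iron regulatory protein for degradation, lies beyond Bst1 and overlaps it. Its TPM were 42.8, 62.6 and 71.2 in Cd38+/+, 80.0, 57.0 and 66.2 in Cd38+/-, and 56.7 to 79.3 (median 71.7) in Cd38-/-. All genotypes overlapped. The differences were 0.25 ± 0.18 SE (q = 0.232) for Cd38-/- and 0.22 ± 0.25 SE (q = 0.448) for Cd38+/- against Cd38+/+, on the log2 scale.

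Cc2d2a encodes a protein of the transition zone at the base of the cilium. Its TPM were 23.8, 9.46 and 19.6 in Cd38+/+, 35.9, 27.0 and 28.6 in Cd38+/-, and 22.6 to 43.3 (mean 29.8) in Cd38-/-. Every Cd38+/- library was above every Cd38+/+ library, and only Cd38-/- replicate 4, at 22.6 TPM, was under the highest Cd38+/+ library. Against Cd38+/+ the log2 fold change was 0.78 ± 0.30 SE (q = 0.0808, exact permutation p = 0.0357) in Cd38-/- and 0.84 ± 0.38 SE (q = 0.236) in Cd38+/-. The difference for Cd38-/- was called without Cd38+/+ replicate 1 (q = 0.0348) or replicate 3 (q = 0.0412). Ciliated ependymal cells were present in the isolates: their 5 markers summed to 2517 to 4767 TPM in Cd38+/+, 2575 to 3019 in Cd38+/- and 3241 to 5076 in Cd38-/-, all 5 above 0 in every library, and their part in the Cc2d2a values was not tested.

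Cpeb2 encodes a protein that binds the tails of mRNAs and regulates their translation, and it lies farthest upstream of the set. Its TPM were 5.13, 6.95 and 8.34 in Cd38+/+, 20.3, 14.2 and 14.4 in Cd38+/-, and 8.02 to 15.3 (median 12.3) in Cd38-/-. The Cd38+/- libraries lay above all Cd38+/+ libraries, and Cd38-/- replicate 3 fell within the Cd38+/+ range. Compared with Cd38+/+, it had a log2 fold change of 1.15 ± 0.40 SE (q = 0.200) in Cd38+/- and 0.74 ± 0.30 SE (q = 0.0932, exact permutation p = 0.0357) in Cd38-/-, and the latter was called without Cd38+/+ replicate 3 (q = 0.0346).

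Tapt1 encodes a membrane protein of the centrosome and cilium base. Its TPM were 90.0, 52.1 and 34.1 in Cd38+/+, 94.1, 83.1 and 90.9 in Cd38+/-, and 65.3 to 89.4 (median 75.6) in Cd38-/-. The spread came from the Cd38+/+ libraries, of which replicate 1 was as high as the mutant libraries. Against Cd38+/+ this gave 0.49 ± 0.24 SE on the log2 scale (q = 0.139) in Cd38-/- and 0.71 ± 0.32 SE (q = 0.238) in Cd38+/-. Without Cd38+/+ replicate 1 the first became 0.85 and was called (q = 0.0140).

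Lap3 and Med28 lie side by side, 1625 and 1652 kb downstream, and differed in opposite directions in Cd38+/- astrocytes. Lap3, a leucine aminopeptidase of the cytosol, had 140, 133 and 113 TPM in Cd38+/+, 157, 186 and 187 in Cd38+/-, and 122 to 155 (median 139) in Cd38-/-. Med28, a subunit of the Mediator complex that links transcription factors to RNA polymerase II, had 246, 217 and 209 TPM in Cd38+/+, 140, 175 and 164 in Cd38+/-, and 175 to 245 (median 197) in Cd38-/-. The Cd38+/- libraries stood apart from both other genotypes, above them for Lap3 and below them for Med28, the latter by the narrowest of margins (174.70 TPM in Cd38+/- replicate 2 against 174.71 TPM in Cd38-/- replicate 1).

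For Cd38+/- against Cd38+/+ the log2 fold change was 0.45 ± 0.17 SE (q = 0.204) for Lap3 and -0.49 ± 0.16 SE (q = 0.191) for Med28, and neither was called. For Cd38-/- against Cd38+/- it was -0.35 ± 0.11 SE for Lap3 (q = 0.219, exact permutation p = 0.0238) and 0.32 ± 0.12 SE for Med28 (q = 0.274, exact permutation p = 0.0238). The homozygous and wild-type libraries overlapped for both genes, with q = 0.366 and q = 0.270. The summed TPM of 8 astrocyte markers also stood apart in Cd38+/-, at 15102 to 16870. It was 9879 to 14448 in Cd38+/+ and 11358 to 14420 in Cd38-/-. Not every marker stood apart: Slc1a2 and Aqp4 did so from both other genotypes, while Slc1a3, Gja1 and Gfap overlapped Cd38-/-. Atp1b2 overlapped Cd38+/+, and Sox9 and Aldoc overlapped both. The part of the marker sum in these differences and in that of Cd38 was not tested. Neither Lap3 nor Med28 ordered by the number of mutant alleles as Cd38 did.

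Counting all 10 genes, the libraries of the compared genotypes did not overlap for 2 genes (Cd38 and Fgfbp1) in Cd38-/- against Cd38+/+ and for 3 (Cd38, Lap3 and Med28) in Cd38-/- against Cd38+/-. In Cd38+/- against Cd38+/+ this held for 6 (Cd38, Cpeb2, Cc2d2a, Fgfbp1, Lap3 and Med28). Over all genes with a value, no overlap was found for 14.1%, 3.99% and 24.8% in the same order.

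Prom1 encodes prominin, a membrane protein of cell protrusions that is known as a marker of stem and progenitor cells. Its TPM were 76.6, 34.5 and 19.2 in Cd38+/+, 36.8, 13.3 and 32.6 in Cd38+/-, and 27.8 to 48.3 (median 41.0) in Cd38-/-. All genotypes overlapped, and the Cd38+/+ libraries alone spanned the whole range of the other genotypes but for the lowest Cd38+/- library. The difference between Cd38-/- and Cd38+/+ was 0.035 ± 0.35 SE on the log2 scale (q = 0.546), and its sign changed with the scaling of the libraries.

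Within the Cd38+/+ and Cd38+/- libraries the Prom1 values had the order of the markers of endothelial cells, which the isolation was meant to remove. The 6 markers (Cldn5, Pecam1, Flt1, Ly6c1, Slco1a4 and Itm2a) were all above 0 in every library. They summed to 2711, 1615 and 617 TPM in the Cd38+/+ libraries in which Prom1 had 76.6, 34.5 and 19.2 TPM. In Cd38+/- they summed to 955, 493 and 707 TPM, again with the highest and lowest values in the libraries highest and lowest for Prom1. In Cd38-/- the order was looser: the sums were 956 and 1732 TPM in the libraries with the highest Prom1 values (replicate 1 with 48.3 TPM and replicate 3 with 48.0 TPM), and the lowest sum, 522 TPM, was in the library lowest for Prom1. The order was not particular to endothelial markers. In Cd38+/+ the sums for astrocytes (14448, 12556 and 9879 TPM) and oligodendrocytes (7183, 4943 and 1295 TPM) had it too. So did those for mural cells and fibroblasts and for leukocytes. In Cd38+/- the ependymal sums had it, and none of these other sums had it in both genotypes. The part of endothelial cells in the Prom1 values was not tested.

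Fgfbp1 encodes a secreted protein that carries fibroblast growth factors out of the matrix, and it was the only gene of the set listed at 0 in a whole genotype. It was at 0 in all 3 Cd38+/+ libraries. The Cd38+/- libraries had 4.29, 1.74 and 2.08 TPM, and the Cd38-/- libraries had 1.85, 7.79, 3.40, 2.08, 2.71 and 2.46 TPM. No fold is given against a genotype listed at 0, and a value listed at 0 without read counts sets no upper limit.

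Fgfbp1 did not reach the 5 TPM needed for the test, but both differences from Cd38+/+ were called in the fit without that filter (q = 0.00529 for Cd38-/- and q = 0.0176 for Cd38+/-), where 12.1% and 3.85% of all genes were called. Cd38-/- and Cd38+/- overlapped, with a difference of 0.19 (interval -0.64 to 1.02, q = 0.655, where 0.0211% of all genes were called). Absence in Cd38+/+ was not particular to this gene: of the 14982 genes above 0 in all 9 mutant libraries, 747 (4.99%) were listed at 0 in every Cd38+/+ library, and of the 2199 with a mean of 1 to 5 TPM there, 177 (8.05%) were. The Cd38+/+ libraries had 13160 to 13516 genes above 0, against 16160 to 16327 in Cd38+/- and 15920 to 17906 in Cd38-/-.

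Choroid plexus markers also differed between the libraries. The 5 markers summed to 300, 45.6 and 99.0 TPM in Cd38+/+, where 2 or 3 of the 5 were above 0 and Kl and Aqp1 were at 0 in all libraries. They summed to 7056, 461 and 188 TPM in Cd38+/- and to 515, 1899, 519, 212, 1203 and 362 TPM in Cd38-/-. The highest sum of each mutant genotype belonged to the library highest for Fgfbp1, Cd38+/- replicate 1 and Cd38-/- replicate 2, as the plot against marker sums shows. Low sums did not always go with a 0: Cd38+/- replicate 3 (188 TPM) and Cd38-/- replicate 4 (212 TPM) had lower sums than Cd38+/+ replicate 1 (300 TPM), and Fgfbp1 was at 2.08 TPM in both and at 0 in the latter. The part of this tissue in the Fgfbp1 values was not tested.

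**Figure D3:**
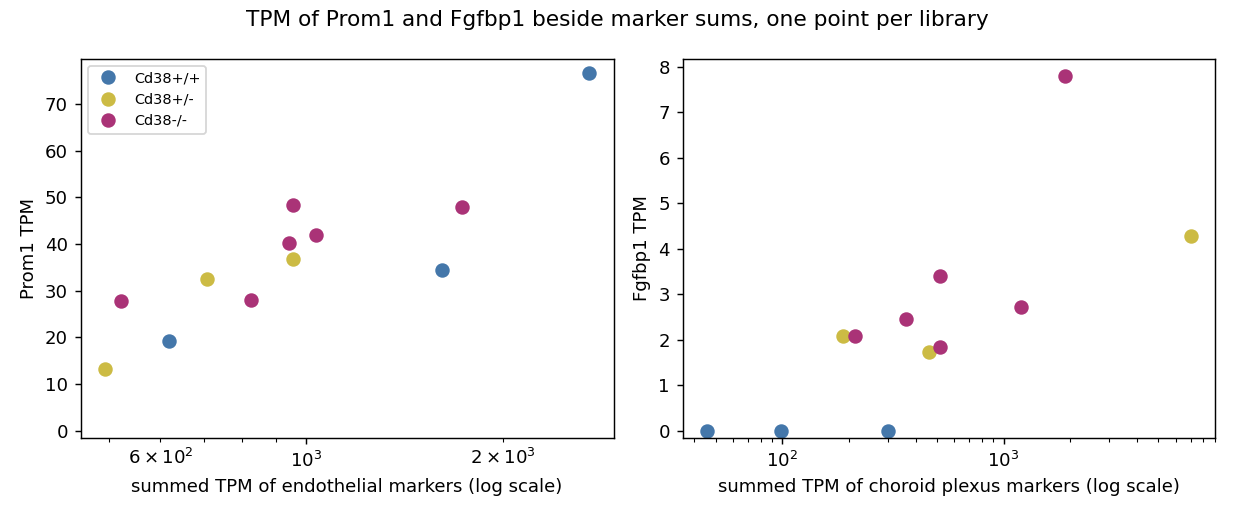
TPM of Prom1 against the summed TPM of 6 endothelial markers (left) and of Fgfbp1 against that of 5 choroid plexus markers (right), with a point for each of the 12 libraries and log horizontal axes. Prom1 was highest, at 76.6 TPM, in the Cd38+/+ library with the highest endothelial sum of 2711 TPM, and Fgfbp1 was at 0 in the Cd38+/+ libraries, whose choroid plexus sums were 300 TPM or less, and at 2.08 TPM in the 2 mutant libraries with sums in that range.

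All 8 astrocyte markers, among them Slc1a2, Aqp4 and Gja1, were above 0 in every library, with the highest sums in Cd38+/-. Oligodendrocyte markers remained at 1295 to 17799 TPM despite the myelin removal. Among the 11373 genes with a mean over 5 TPM across the 12 libraries, the spread between libraries was wider in Cd38+/+ (median SD 0.482 on the log2 scale) than in Cd38+/- (0.197) and Cd38-/- (0.230). The median gene tested was 0.15 higher in Cd38-/- and 0.18 higher in Cd38+/- than in Cd38+/+, on the log2 scale, so differences of neighbours of about that size are those of the median gene. After median-ratio scaling these shifts were 0.03 and 0.05.

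To look beyond the named neighbours, all genes within 10 Mb of Cd38 were counted by position. In Cd38-/- against Cd38+/+, 6 of the 72 genes tested were called (8.33%, against 8.87% of 699 genes on the rest of chromosome 5 and 8.24% of 10937 on other chromosomes). None of the 6 genes up to 1 Mb away or of the 9 genes from 1 to 5 Mb was called, and all 6 called genes were among the 57 from 5 to 10 Mb. The median log2 fold change in the window was 0.24, against 0.16 and 0.15. Neither Cd38+/- against Cd38+/+ nor Cd38-/- against Cd38+/- gave a call among 71 genes tested in the window, where 13 and 7 had an unadjusted limma p under 0.05 (18.3% and 9.86%, against 13.5% and 11.2% of all genes tested). The count in the window ranged from 1 to 19 when single libraries were left out (1 without Cd38-/- replicate 2, 19 without Cd38+/+ replicate 3), and was 0 with the replicate number as a block and 0 with weights for library quality.

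The genes called were Dhx15, Tbc1d19, Ccdc149 and Ccdc96, which were higher in Cd38-/-, and Jakmip1 and Sod3, which were lower. Of the 4 higher genes, Dhx15 (an RNA helicase of spliceosome disassembly, 8.32 Mb away) had a mean of 28.5 TPM in Cd38+/+, 52.8 in Cd38+/- and 50.4 in Cd38-/- (log2 fold change 0.83, q = 0.0232). Tbc1d19, Ccdc149 and Ccdc96 had log2 fold changes of 0.52, 1.88 and 1.00, and for all 4 the Cd38+/- mean was also above that of Cd38+/+. Ccdc149 was low, at 3.36, 0 and 0.19 TPM in Cd38+/+ against a mean of 5.39 TPM in Cd38-/-. It passed the filter only through the genotype in which it was higher, so its fold rests on Cd38+/+ values near 0. These 4 calls held in 5 (Dhx15), 3 (Tbc1d19), 4 (Ccdc149) and 3 (Ccdc96) of the 9 fits that left out a library. Each was lost without Cd38-/- replicate 1, 2, 5 or 6. The calls of Naprt, Nadk2, Art3, Spon2 and Dram2, described below, were lost without the same libraries, so these losses were not particular to the 4 genes. All 6 calls within 10 Mb, those of Jakmip1 and Sod3 included, were lost with the replicate block and with weights for library quality. The block fit compares libraries of the same replicate number. Cd38-/- replicates 4, 5 and 6 have no such partner and so do not bear on its genotype difference. With Benjamini-Hochberg adjustment Tbc1d19, Ccdc149 and Ccdc96 were not called. Tbc1d19 and Ccdc96 were also lost after median-ratio scaling and with eBayes without the trend, and Ccdc149 and Ccdc96 after quantile normalization. Ccdc96 was lost too with a pseudocount of 0.1, with at least 1 TPM required in every compared library, and with length and GC trends removed.

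Jakmip1, whose protein binds Janus kinases and microtubules, lies 6.84 Mb upstream. It had 93.0, 131 and 139 TPM in Cd38+/+, 83.6, 74.5 and 85.8 in Cd38+/-, and 46.2 to 79.3 (median 59.7) in Cd38-/-. The Cd38+/- libraries overlapped those of Cd38-/- through a single Cd38-/- library, replicate 1. Against Cd38+/+ the Cd38-/- log2 fold change was -0.97 ± 0.19 SE (q = 0.0170), and the call was lost without Cd38-/- replicate 2 (q = 0.0523).

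Sod3, the superoxide dismutase secreted into the extracellular space, lies 8.50 Mb downstream at chr5:52363791-52371418. It had 52.9, 38.4 and 38.7 TPM in Cd38+/+, 38.4, 38.8 and 28.7 in Cd38+/-, and 18.1, 17.4, 16.0, 20.1, 16.8 and 9.18 in Cd38-/-. All 6 Cd38-/- libraries lay below all 6 others. The log2 fold change was -1.38 ± 0.25 SE (q = 0.0144) against Cd38+/+, a call that held in all 9 fits that left out a library and was lost with the block and with quality weights (q up to 0.318), and -1.10 ± 0.21 SE (q = 0.0812) against Cd38+/-, which was not called.

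Because Sod3 kept apart from both other genotypes, genes were next sought whose 6 Cd38-/- libraries all lay above or all below the 6 Cd38+/+ and Cd38+/- libraries. This rule was chosen after the values of Sod3 and Cd38 had been seen and carries no test. The limit of 20 Mb, wider than the 10 Mb window above, was also not planned, and the shares below depend on where it is set. Of 11845 genes, 48 (0.405%) met it, 19 lower and 29 higher in Cd38-/-. Chromosome 5 held 10 of them among 781 genes, Cd38 included. Within 20 Mb, and leaving out both Cd38 and Sod3, which prompted the rule, 4 of 163 genes met it (2.45%), against 4 of 616 (0.649%) on the rest of chromosome 5 and 38 of 11049 (0.344%) on other chromosomes. The 4 genes all lay beyond 10 Mb, with 3 of 62 genes from 10 to 15 Mb and 1 of 30 from 15 to 20 Mb. Of the 72 genes within 10 Mb, Sod3 alone met it, and none of the neighbours of Cd38 in the set that were searched did. Bst1 and Fgfbp1, with means under 5 TPM in every genotype, were not searched.

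**Figure D4:**
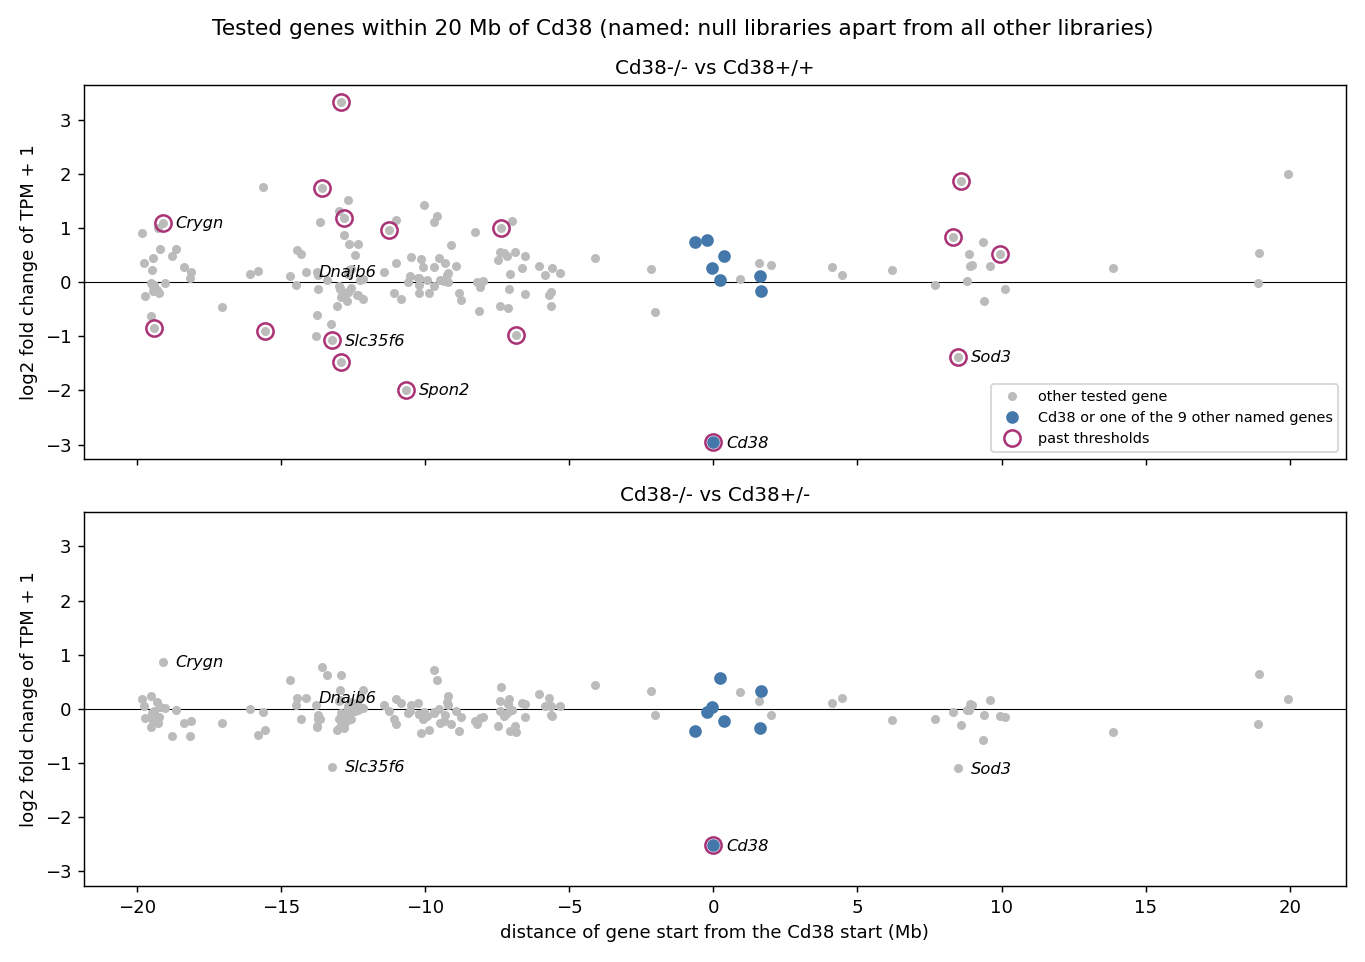
Log2 fold change of TPM + 1 (vertical axes) for tested genes within 20 Mb of the Cd38 start against distance in Mb, for Cd38-/- against Cd38+/+ (top) and against Cd38+/- (bottom). Blue points are Cd38 and the named neighbours, rings mark differences past the thresholds, and names mark the 5 genes other than Cd38 that set the Cd38-/- libraries apart from all others, of which Spon2 was below the filter in the lower panel.

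With Sod3 the genes were Crygn and Dnajb6, higher in Cd38-/-, and Slc35f6, Spon2 and Sod3, lower. Other genes from 10 to 20 Mb were called in Cd38-/- against Cd38+/+ without meeting the rule. They were Abhd1 (log2 fold change 3.33, q = 0.00117), Cad, Yes1 and Drc1, which were higher, and Cgref1, Tmub1 and Rbm33, which were lower. Of all genes tested on chromosome 5 beyond 10 Mb, 8.87% were called. Slc35f6, 13.2 Mb upstream, had 98.6, 98.0 and 108 TPM in Cd38+/+, 87.4, 118 and 101 in Cd38+/-, and 33.5 to 63.4 (median 46.3) in Cd38-/-. The Cd38+/+ and Cd38+/- libraries overlapped (means 102 and 102 TPM), and Cd38-/- had a log2 fold change of -1.07 against either (q = 0.0144 and q = 0.0704, the latter not called).

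Spon2, which encodes spondin, an extracellular matrix protein, lies 10.7 Mb upstream. It had 6.98, 7.38 and 8.32 TPM in Cd38+/+, 2.50, 4.88 and 3.25 in Cd38+/-, and 0.32 to 1.99 (median 1.18) in Cd38-/-. As for Cd38, no genotype overlapped another. Only the Cd38+/+ mean (7.56 TPM) was above 5 TPM, so Cd38-/- against Cd38+/- was not tested. Cd38+/- against Cd38+/+ was not called (q = 0.278). For Cd38-/- against Cd38+/+ the log2 fold change of Spon2 was -1.98 ± 0.42 SE (q = 0.0207). That call held in 5 of the 9 fits that left out a library and was lost without Cd38-/- replicate 1, 2, 5 or 6 (q up to 0.0607).

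Crygn, a gamma crystallin gene 19.1 Mb upstream, ran in the opposite direction, with 56.7, 89.5 and 71.8 TPM in Cd38+/+, 83.7, 73.6 and 96.2 in Cd38+/-, and 132 to 190 (median 147) in Cd38-/-. The log2 fold change against Cd38+/+ was 1.10 ± 0.17 SE (q = 0.00739) and that against Cd38+/- was 0.87 ± 0.14 SE (q = 0.0626). Dnajb6, a heat shock cochaperone gene, differed little, with 133 to 144 TPM in Cd38+/+, 127 to 142 in Cd38+/- and 146 to 174 in Cd38-/- (log2 fold change 0.19, q = 0.177 against Cd38+/+). The Cd38+/+ and Cd38+/- libraries of Crygn, Dnajb6, Slc35f6 and Sod3 overlapped one another, and only Cd38 and Spon2 stepped at each genotype.

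**Figure D5:**
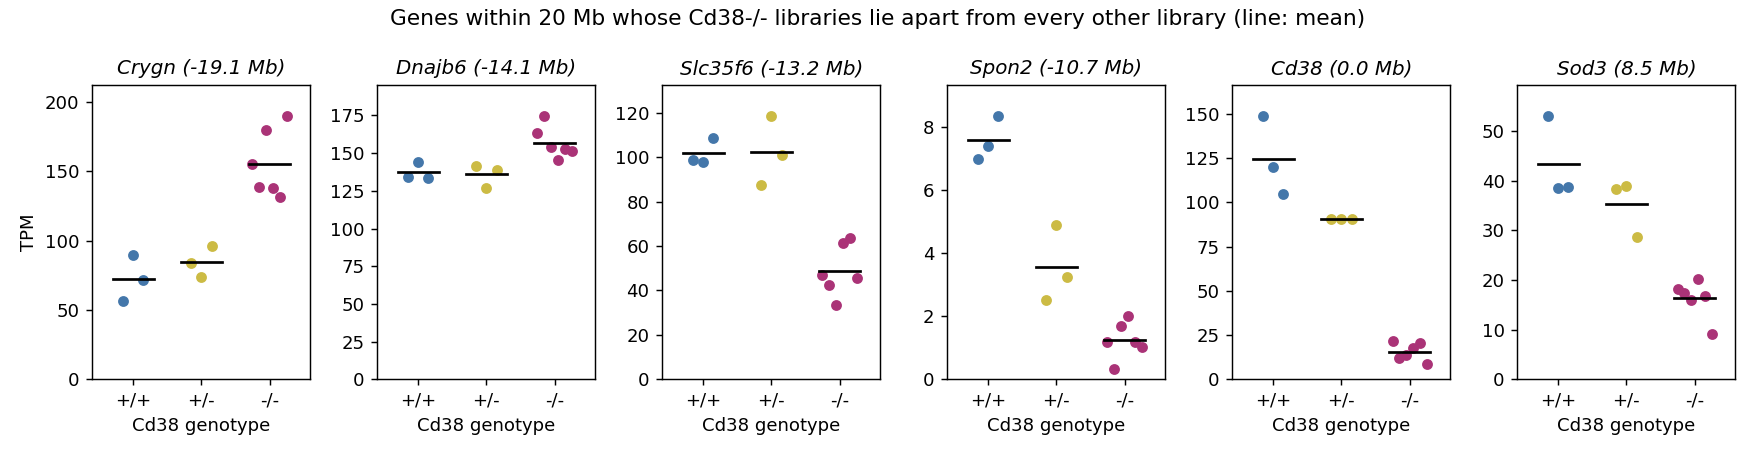
TPM (vertical axes from 0) of Cd38 and of the 5 genes within 20 Mb whose Cd38-/- libraries lie apart from all others, with the distance from Cd38 in Mb above each panel, a point for each library and a line at the mean of each genotype. The Cd38-/- libraries lie below the rest for Slc35f6, Spon2, Cd38 and Sod3 (at most 63.4, 1.99, 21.9 and 20.1 TPM) and above it for Crygn and Dnajb6.

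Genes whose level followed that of Cd38 most closely were sought by the root mean square difference of standardised log2(TPM + 1) over the 12 libraries, among 11845 genes. The nearest 5 were Sod3 (0.278), Slc35f6 (0.376), Slc24a3 (0.389), Spon2 (0.449) and Dram2 (0.451). Of these 5, 3 lie on chromosome 5, as do 7 of the nearest 20 and 12 of the nearest 100, where 6.59% of all genes searched lie there. Those 3, Sod3, Slc35f6 and Spon2, were already described above because their Cd38-/- libraries lie below all others, as those of Cd38 do. Their nearness to Cd38 is therefore not a separate observation. Slc24a3, a calcium and sodium exchanger gene on chromosome 2, had means of 16.5, 16.9 and 11.5 TPM in Cd38+/+, Cd38+/- and Cd38-/-. Dram2, a modulator of autophagy on chromosome 3, had means of 62.4, 46.9 and 26.7 TPM, and was called in Cd38-/- against both Cd38+/+ (log2 fold change -1.11, q = 0.0200) and Cd38+/- (log2 fold change -0.79, q = 0.0205), where it was among the 4 genes called. The call against Cd38+/+ held in 5 of the 9 fits that left out a library and was lost without Cd38-/- replicate 1, 2, 5 or 6, with the block and with quality weights. The points share libraries and a 3-group structure, so closeness is a description.

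The genes nearest to Bst1 were farther from it than those of Cd38. They were Lrrc14 (0.601), Utp14a (0.636), Grin2b (0.697), Spdef (0.716) and Eid2b (0.720), of which none lies on chromosome 5. With Bst1 at 0 in 4 of the 12 libraries and no value above 0.38 TPM, its profile rests on differences under 1 TPM.

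The other genes of NAD turnover and cyclic ADP-ribose signalling were called about as often as genes at large. Of 43 genes listed for these functions, 28 were expressed highly enough to test. In Cd38-/- against Cd38+/+, 3 of the 28 were called (10.7%, against 8.28% of all genes tested), and the 28 had a median log2 fold change of 0.15, as did all genes tested. In Cd38+/- against Cd38+/+ and in Cd38-/- against Cd38+/-, none was called, with 3 and 2 of the 28 at an unadjusted limma p under 0.05 (background 13.5% and 11.2%).

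By role, 2 of the 9 tested genes of NAD synthesis or of the conversion of NAD to NADP were called. Naprt, which makes NAD from nicotinic acid, had 104, 121 and 103 TPM in Cd38+/+, 66.9, 89.8 and 96.1 in Cd38+/-, and 64.5 to 83.9 (median 73.5) in Cd38-/-, where it was lower without overlap (log2 fold change -0.57 ± 0.14 SE, q = 0.0276). Nadk2, the mitochondrial kinase that turns NAD into NADP, had 101, 99.1 and 92.3 TPM in Cd38+/+, 145, 139 and 154 in Cd38+/-, and 119 to 149 (median 129) in Cd38-/-, and was higher without overlap (log2 fold change 0.43 ± 0.12 SE, q = 0.0384). Nampt, the rate-limiting enzyme of NAD salvage, did not pass the test (log2 fold change 0.20, q = 0.365).

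None of the 12 tested NAD-consuming enzymes was called, with log2 fold changes from -0.46 to 1.09 in Cd38-/- against Cd38+/+ among sirtuins, PARPs and tankyrases, and 4 of the 12 at an unadjusted limma p under 0.05 (background 23.6%). Of the 8 calcium channels and binding proteins on which CD38 products act, 3 were tested and none called. Of the 4 tested ectoenzymes and carriers, Art3, a member of the ADP-ribosyltransferase family that lies on chromosome 5 at 48.5 Mb from Cd38, was called higher in Cd38-/- (mean 55.2 against 29.8 TPM, log2 fold change 0.94 ± 0.27 SE, q = 0.0433). The calls of Naprt, Nadk2 and Art3 held in 5, 4 and 2 of the 9 fits that left out a library, and all 3 were lost with the block and with quality weights. Naprt was also lost with length and GC trends removed, where its log2 fold change was -0.33. Nadk2 and Art3 were also lost with Benjamini-Hochberg adjustment, with eBayes without the trend and after median-ratio scaling, as were Nadk2 with length and GC trends removed and Art3 after quantile normalization.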

How the data were processed

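Gene expression was measured in 12 libraries, grouped by the genotype in the sample labels. The deposited unit is TPM, which the authors made per gene and library without pooling replicates. Per the processing notes and methods, the authors used Trim Galore 0.6.4, STAR 2.7.1a on mm10 and RSEM 1.2.28. The processing notes also name DESeq2 1.36.0, with no role given, and the annotation is not given in the sources used here. Each library sums to 1000000, so depth and counting error are unknown, and no libraries were identical.

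The genes described and all lists were chosen with earlier results of these data known. Positions and exons came from GENCODE vM21 (GRCm38), which held 20503 of 20614 genes. For each comparison, genes with mean TPM over 5 in a compared genotype were fitted as log2(TPM + 1) with limma 3.58.1 (lmFit, eBayes with trend, R 4.3.3) on the libraries of the compared genotypes. A call needed a Storey q under 0.05 and a 1.2-fold change. This model was chosen to suit TPM values, which are not read counts. Fold changes on this scale understate those of low genes. Exact permutation tests were two-sided. The scripts were checked on simulated data. Genes named beside the 10 were those called within 10 Mb or in the NAD list, the 5 nearest in profile to Cd38 and to Bst1, and, chosen after their values were seen, the genes within 20 Mb with Cd38-/- libraries apart. The other genes called within 20 Mb were named too, but were not followed under the varied settings. The settings varied were the pseudocount (0.1 or 5), the filter (none, or at least 1 TPM in every compared library), Benjamini-Hochberg adjustment, a log2 fold threshold of 1.2, eBayes without trend, library quality weights, median-ratio or quantile scaling, a joint fit of all 12 libraries, a block for the replicate number, removal of length and GC trends, and the omission of each library in turn. Figures were drawn with matplotlib 3.10.9.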

Additional observations from a re-analysis of the deposited data

Results flagged for a closer look

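Among the 10 genes, the 6 Cd38-/- libraries of each were examined for a single library far from the others, by the gap to its neighbour over the whole range against Dixon's critical value of 0.625. Chance gives such a value for about 1 group in 20 where values are independent and normally distributed, and 2 of the 10 groups had one. The 10 groups share the same 6 libraries, and the Bst1 values lie near 0. The 2 of 10 therefore cannot be set against that rate. For Bst1, Cd38-/- replicate 4 was listed at 0.38 TPM, with a gap of 0.711 of the range above the next library at 0.11 TPM. For Fgfbp1, Cd38-/- replicate 2 had 7.79 TPM, with a gap of 0.739 of the range above the next library at 3.40 TPM. The same library had the highest choroid plexus sum of its genotype, 1899 TPM, and that sum was 212 TPM, the lowest of the genotype, in the library highest for Bst1. Without Cd38-/- replicate 4, the Bst1 difference between Cd38-/- and Cd38+/+ was 0.0024 on the log2 scale, below the filter and so not tested.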

How the results depend on the processing

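Cd38 was lower in Cd38-/- than in Cd38+/+ and Cd38+/- under all alternatives run (log2 fold change -3.14 to -2.67 and -2.65 to -2.25, and -3.08 to -2.81 and -2.63 to -2.37 when single libraries were left out). The call was lost against Cd38+/+ with library quality weights (-3.14) and against Cd38+/- without Cd38+/- replicate 3 (-2.52); the causes were not tested. The Bst1 difference from Cd38+/+ moved to 0.42 (Cd38-/-) and 0.20 (Cd38+/-) with a pseudocount of 0.1 and to -0.22 and -0.19 with quantile normalization, and that between mutant genotypes to 0.22 with a pseudocount of 0.1.

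For Cd38-/- against Cd38+/+, the number of the 10 genes called, 1 as reported, was 2 without the filter, 0 with quality weights, 2 with all 12 libraries in one fit (Cc2d2a added, q = 0.0460) and 1 to 3 when single libraries were left out. The number within 10 Mb, 6 as reported, was 19 without the filter, 3 with Benjamini-Hochberg adjustment, 2 at the log2 threshold of 1.2, 0 with quality weights, 12 with all 12 libraries, 0 with the block and 1 to 19 when single libraries were left out. For Cd38+/- against Cd38+/+ these counts, both 0 as reported, were 1 and 6 without the filter and 3 (Cpeb2, Lap3 and Med28) and 10 with all 12 libraries. For Cd38-/- against Cd38+/-, 4 of the 10 genes (Cd38, Cpeb2, Lap3 and Med28) and 22 within 10 Mb were called with quality weights, and 0 to 1 and 0 to 1 when single libraries were left out. The estimate of the quality weights stopped short of convergence in both comparisons with Cd38+/-. More genes tested raises the counts without the filter; the other causes were not tested.

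Signs turned only among values that were not called. In Cd38-/- against Cd38+/+, Prom1 became -0.18 with quality weights, -0.088 with median-ratio scaling, -0.050 with quantile normalization, -0.084 with length and GC trends removed and -0.42 to 0.55 when single libraries were left out, and Lap3 became -0.019 with median-ratio scaling and -0.018 with the block. In Cd38-/- against Cd38+/-, Cc2d2a became 0.11 with the block and -0.17 to 0.064 and Fbxl5 -0.078 to 0.16 when single libraries were left out. Of all calls in Cd38-/- against Cd38+/+, 752 of 970 were higher, 551 of 941 after median-ratio scaling and 578 of 965 after quantile normalization.

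Genotypes share replicate numbers, but the labels do not say that a number marks a shared litter or day, and deviations of same-numbered libraries correlated at -0.317 to 0.501. Cd38-/- replicates 4, 5 and 6 share their numbers with no other library, so they do not bear on the genotype difference in the block fit. With the replicate block Cd38 was at -2.94 (q = 0.0318) and -2.50 (q = 0.0234) in Cd38-/- against Cd38+/+ and Cd38+/-. In Cd38+/- against Cd38+/+ it was at -0.44 (q = 0.315). Of the other calls in Cd38-/- against Cd38+/+, the 6 within 10 Mb were lost with the block and with quality weights. So were those of Slc35f6, Spon2, Crygn, Naprt, Nadk2, Art3 and Dram2. The calls of Abhd1, Cad, Yes1, Drc1, Cgref1, Tmub1 and Rbm33 were not followed under these settings. The genes that set Cd38-/- libraries apart within 20 Mb, 5 as reported, were 6 after median-ratio or quantile scaling, alternatives added after the data were seen. Without read counts no lower limit of detection can be set for Bst1 or Fgfbp1.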
